A study of Mus musculus with 2 samples.

Results

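The cells described here are interstitial cells of the mouse mitral valve that carried transcripts of C3, the central protein of the complement system. A cell barcode was kept with at least 1000 unique molecular identifiers (UMIs, counted transcript molecules), at least 500 genes and at most 20% of UMIs from mitochondrial genes. It counted as interstitial when Dcn, Col1a1, Col1a2 and Col3a1 together made up at least 1% of its UMIs, and as a C3 cell when it also held at least 3 C3 UMIs. By this rule 1067 of 15324 interstitial cells, among 18630 kept barcodes, were C3 cells. Of these, 659 came from the wild type library and 408 from the Fbn1 C1039G/+ library. Interstitial cells with no C3 UMI, called C3 = 0 cells, numbered 6364 and 6851. C3 counts chose the cells, so the level of C3 in them is given as a description and supports nothing else.

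C3 is cleaved when the classical, lectin or alternative pathway is switched on, and its larger fragment marks surfaces for uptake by phagocytes. The classical pathway runs through C1, C4 and C2 and the alternative pathway through factor B. Most circulating C3 comes from the liver, but fibroblasts also make it when exposed to inflammatory cytokines, and fibroblasts that express C3 with proteases and chemokines are known from the outer layer of vessels and from inflamed tissue. Valve interstitial cells are the fibroblasts that build and maintain the leaflet matrix.

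Each group was 1 single-cell 3′ library of dissected mitral valves, anterior and posterior leaflets together, from C57BL/6J mice aged 1 month. The wild type library (Fbn1 +/+) pooled 5 mice, and the Fbn1 C1039G/+ library pooled 3 mice that carry on 1 allele a cysteine substitution in fibrillin-1, a model of Marfan syndrome. The substitution is in the germline, so every cell type carries it. Since each genotype had 1 pooled library, there was no replicate and no test between genotypes; all intervals are 95% intervals that cover counting error only. CPM values give the UMIs of a gene, summed over the named cells of a library, after scaling to a fixed total. Where values are given in pairs without a name, the wild type comes first and the Fbn1 C1039G/+ library second, and C3 cells stand before C3 = 0 cells.

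The C3 cells held 9063255 UMIs in the wild type and 5635713 in the Fbn1 C1039G/+ library. Their median depth was 11885 and 11642.5 UMIs, above the 9917.5 and 9936 UMIs of the C3 = 0 cells. The libraries shared 17 kept barcodes, none of which was a C3 cell in both libraries. Both pools held both sexes by Xist and Y-linked transcripts, so at least 1 sex in the pool of 3 mice came from a single mouse. The automatic threshold of the doublet caller marked 0 barcodes, so no doublet was removed in the values below and removal by score was run as an alternative.

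The rule admitted both kinds of cell by a floor on the same 4 interstitial transcripts, so their presence is fixed by the choice. Together the 4 made up a median of 3.12% against 2.77% of UMIs in the wild type. In the Fbn1 C1039G/+ library the medians were 3.49% against 3.14%. Dcn, the small proteoglycan decorin, stood at 17686 against 17867 CPM in the wild type. In the Fbn1 C1039G/+ library it stood at 18985 against 19146 CPM. Mesothelial and epicardial genes were near 0, at a summed 0.110 and 0.355 CPM over 10 genes in the C3 cells, with Upk3b, Krt8, Krt18 and Wt1 among the 7 at 0. Macrophage transcripts were more common than in the other cells. At least 3 UMIs of macrophage genes occurred in 13.7% and 13.5% of C3 cells against 3.79% and 5.52% of C3 = 0 cells. The 12 macrophage genes summed to 2265 and 1540.4 CPM in C3 cells against 415 and 493 CPM, and all 11 measured ones were at least 2-fold higher in both libraries. The C3 cells with such transcripts, 90 and 55 in number, had a median of 22047 and 19811 UMIs against 11461 and 11318 in the remaining 569 and 353 C3 cells, called macrophage-low C3 cells from here on. Levels in the macrophage-low cells are given beside some of the results below. Where they are not given, the values include the cells with macrophage transcripts unless stated.

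The working name of these cells, adventitial-like fibroblasts, was borne out by only some of its genes. Of 25 genes of adventitial and universal fibroblasts 17 were measured, and 4 were at least 2-fold higher in C3 cells of both libraries. They were Ly6a, Efemp1, Penk and Adamtsl1. By the same rule 2.96% of all measured genes were higher and 1.01% lower. Ly6a, which encodes the surface antigen Sca-1, stood at 518 CPM against 87.1 CPM in the wild type and 554 CPM against 218 CPM in the Fbn1 C1039G/+ library. Efemp1, which encodes fibulin-3, stood at 97.98 CPM against 26.2 CPM in the wild type and 61.9 CPM against 17.4 CPM in the Fbn1 C1039G/+ library. Pi16, the leading marker of universal fibroblasts, was lower, at 38.5 against 199.9 CPM and 62.3 against 149.99 CPM, and Cd34 was not higher, at 315 against 442 CPM and 377 against 443 CPM. Of the genes given as markers of the state, Mmp3, Svep1, Cpz and Igfbp3 met the 2-fold rule. Clec3b, which encodes tetranectin, missed it at 1.88-fold in the wild type and 2.87-fold in the Fbn1 C1039G/+ library. The cells are therefore called by their rule, as C3 cells.

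The gene that chose the cells and the matrix protease that marked them have the promoters below, shown because Mmp3 was higher in cells with more C3. Each is the 250 bases before the RefSeq start site in GRCm38.p6, 5′ to 3′ on the strand of the gene, chr17:57228137-57228386 on the minus strand for C3 and chr9:7445572-7445821 on the plus strand for Mmp3. Capitals mark a match to the C/EBP-type motif TTGCNNAA or the AP-1 motif TGANTCA, searched on both strands.
C3: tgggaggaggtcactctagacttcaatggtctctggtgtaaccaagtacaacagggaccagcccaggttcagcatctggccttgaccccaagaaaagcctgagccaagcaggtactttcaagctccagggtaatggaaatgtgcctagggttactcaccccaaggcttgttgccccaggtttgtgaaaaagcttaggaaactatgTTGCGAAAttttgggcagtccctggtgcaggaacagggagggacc
Mmp3: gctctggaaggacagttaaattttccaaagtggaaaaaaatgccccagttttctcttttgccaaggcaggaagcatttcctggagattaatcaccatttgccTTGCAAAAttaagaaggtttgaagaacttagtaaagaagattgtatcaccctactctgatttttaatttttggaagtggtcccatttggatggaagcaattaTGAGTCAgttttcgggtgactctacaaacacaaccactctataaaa
Both windows held 1 C/EBP-type match, starting 45 bases before the start site in C3 and 148 bases before it in Mmp3. The Mmp3 window also held 1 AP-1 match, starting 46 bases before the start site. Among 32851 RefSeq promoters of the same window length 9.56% held the C/EBP-type motif and 6.75% the AP-1 motif. The kappaB-type motif (GGG, any 2 bases, then TTTCC), found in 1.41% of promoters, and the GAS motif TTCNNNGAA, found in 7.02%, had no match in either window, and none of the 4 motifs matched the window of Cxcl9. The genes and motifs were chosen after the levels were seen, and a match is a run of letters, not a measured binding site. Transcripts of Cebpb, a factor of the C/EBP family, stood at 349.7 CPM against 151 CPM in the wild type and 270.1 CPM against 116 CPM in the Fbn1 C1039G/+ library.

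C3 cells made up a smaller share of interstitial cells in the Fbn1 C1039G/+ library. They were 8.72% (8.09 to 9.38) of 7556 interstitial cells in the wild type and 5.25% (4.77 to 5.77) of 7768 in the Fbn1 C1039G/+ library. The difference was -3.47 percentage points (-4.28 to -2.66) and the ratio 0.602 (0.534 to 0.679). Cells with 3 to 5 C3 UMIs were 3.097% and 2.63% of interstitial cells, or 234 and 204 cells, a ratio of 0.848. The ratio was 0.550 at 6 to 10 C3 UMIs, 0.563 at 11 to 20 and 0.148 above 20, where 92 and 14 cells stood, or 1.22% and 0.180%. The differences in percentage points, -0.47, -1.19, -0.77 and -1.04 over the same 4 groups, had no steady order. Just outside the threshold, 148 and 154 cells held 2 C3 UMIs, and just inside it 101 and 88 cells held 3.

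**Figure D1:**
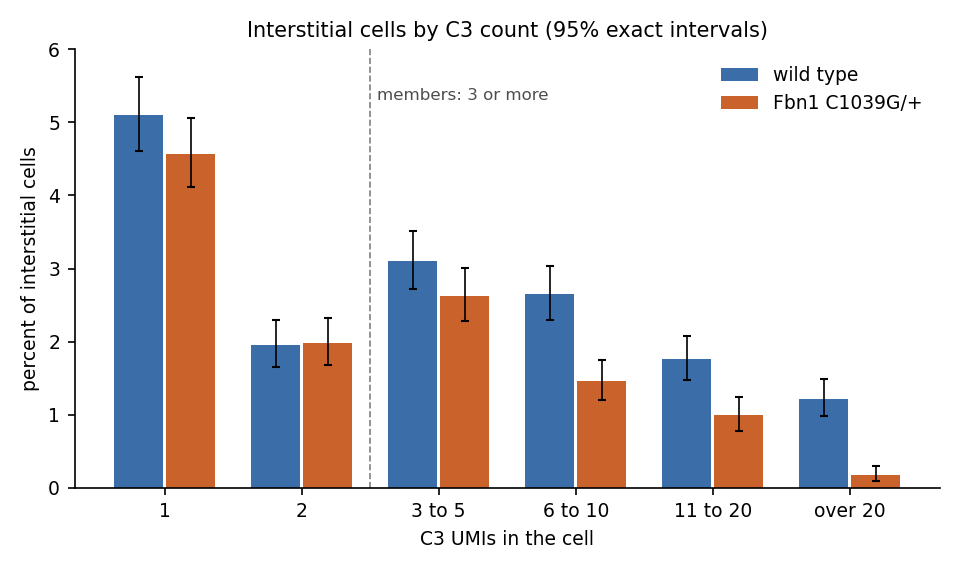
Percent of interstitial cells (vertical axis) by the number of C3 UMIs in the cell (horizontal axis), in the wild type and the Fbn1 C1039G/+ library, with exact 95% intervals as bars. Both libraries have about 2% of cells at 2 UMIs (1.96% and 1.98%), and above 20 UMIs the shares are 1.22% and 0.180%.

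The median C3 cell held 7 C3 UMIs in the wild type and 5.5 in the Fbn1 C1039G/+ library, and the highest held 161 and 45. Summed over all interstitial cells C3 (ENSMUSG00000024164, mm10 chromosome 17, 57203970 to 57228136, minus strand) stood at 111 and 43.5 CPM, and the C3 cells carried 92.6% and 82.4% of those UMIs. With every interstitial cell thinned to 3000 UMIs, 9.45% and 6.67% had a C3 UMI, against 15.8% and 11.96% unthinned. That left out 39 and 292 shallower cells. The lower share in the Fbn1 C1039G/+ library was present in cells called female, at 8.30% and 4.64%, and in cells called male, at 9.07% and 5.41%. Without the cells holding macrophage transcripts the shares were 7.93% and 4.85%.

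C3 transcripts were also seen outside the interstitial cells. At least 1 C3 UMI occurred in 14.3% and 7.80% of the 524 and 615 cells led by macrophage genes and in 3.54% and 0.909% of the 254 and 330 endothelial cells, at median depths of 8846.5 and 7824 UMIs and of 10216 and 10557.5 UMIs. In T cells, which should lack C3, it occurred in 0 of 122 cells, which allows a share of up to 2.98%, and in 1 of 51 cells, at depths of 4684 and 4235 UMIs. The threshold of 3 UMIs was met by 0 and 1 endothelial cells, or 0% and 0.303%, and by 19 and 7 of the cells led by macrophage genes, or 3.63% and 1.14%. Among 497 and 443 cells led by dendritic cell genes it was met by 24 and 3, or 4.83% and 0.677%, and C3 stood at 77.1 and 14.4 CPM in them. The shares in interstitial cells were 8.72% and 5.25%.

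The C3 cells varied among themselves, and many of their genes were higher in steps with C3. Mmp3, which encodes stromelysin-1, a protease that cuts proteoglycans and fibronectin, stood at 95.4 CPM in wild type cells without C3, 736 CPM in those with 3 to 5 C3 UMIs and 1465 CPM in those with 11 or more. In the Fbn1 C1039G/+ library the same groups held 149.7, 927 and 2069.6 CPM. Svep1, a large matrix protein with complement-type repeats, went from 6.23 to 58.1 and 125 CPM and from 9.53 to 73.7 and 158 CPM. Cells with 1 or 2 C3 UMIs already lay between, with Mmp3 at 399 and 705 CPM in the wild type and 391 and 649 CPM in the Fbn1 C1039G/+ library. The threshold thus cut a graded range and no gap separated its sides: at exactly 3 C3 UMIs Mmp3 stood at 737 and 1052 CPM. Prg4, which encodes the joint lubricant lubricin, ran the other way, from 2569.9 and 1737 CPM without C3 to 694 and 379.7 CPM at 11 or more.

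**Figure D2:**
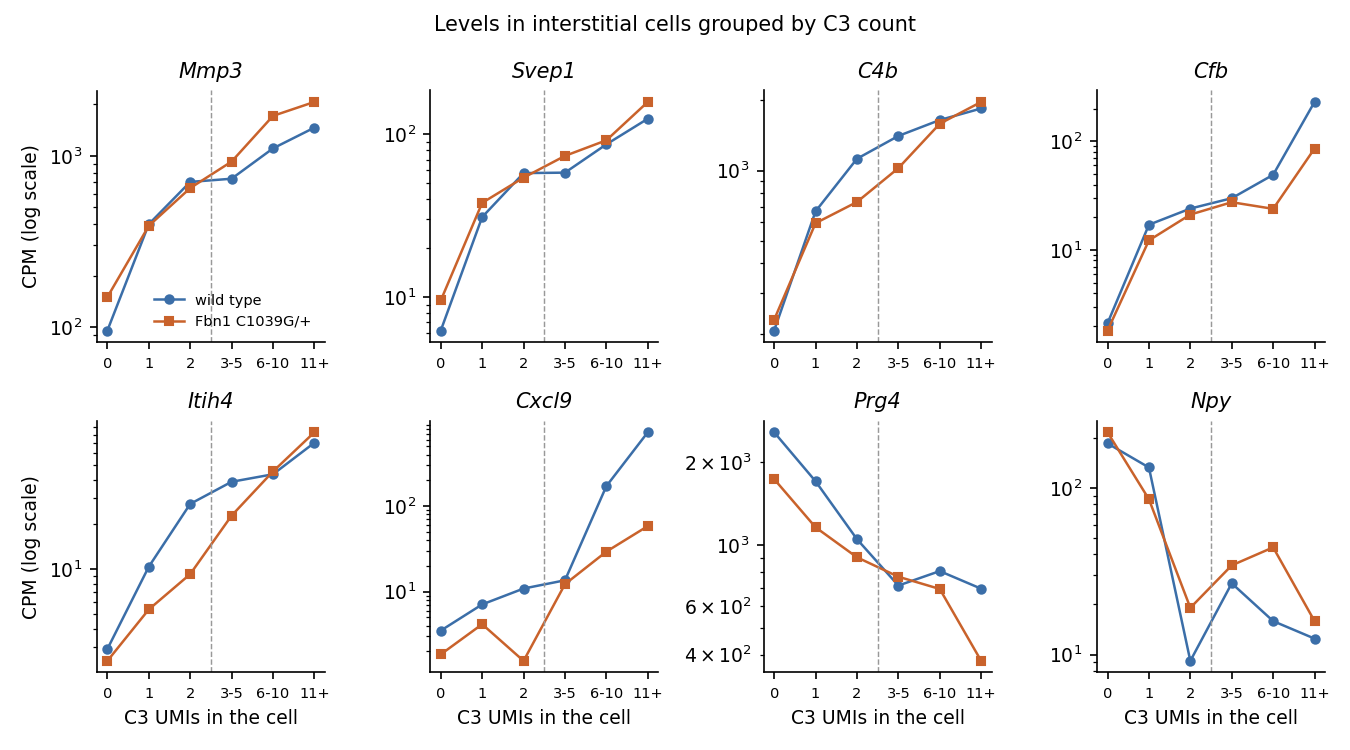
CPM (vertical axes, log scale) of 8 genes in interstitial cells grouped by C3 UMIs (horizontal axes), for the wild type (circles) and the Fbn1 C1039G/+ library (squares); the dashed line marks the threshold between 2 and 3. Mmp3, Svep1, C4b, Itih4 and Cfb are higher at 11 or more than at 0 in both libraries, Prg4 and Npy are lower, and Cxcl9 is alike in the libraries at 3 to 5 UMIs and higher in the wild type from 6 UMIs up.

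Compared with C3 = 0 cells, 208 of 7032 measured genes, or 2.96%, were at least 2-fold higher in C3 cells of both libraries with both intervals excluding 1, and 71, or 1.01%, were lower, 3.97% in all. Among the macrophage-low cells alone, set against C3 = 0 cells filtered likewise, the counts were 161 and 65. Measured genes had at least 20 CPM in 1 of the 4 groups of cells and at least 50 UMIs in all, and C3 itself was left out. The median log2 ratio over all measured genes was -0.02 in both libraries.

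Complement genes other than C3 were higher in the same cells. Of 10 measured complement genes 6 were higher by the rule, against 2.96% of all measured genes. They were C4b, C2, Cfb, C1s1, C1ra and Serping1, and the median log2 ratio of the 10 was 2.14 and 1.82. Cfb, the factor B protease of the alternative pathway, stood at 116 CPM against 2.11 CPM in the wild type and 40.8 CPM against 1.80 CPM in the Fbn1 C1039G/+ library, or 54.8-fold (45.99 to 65.8) and 22.6-fold (18.2 to 28.2). C2, the classical pathway protease next to Cfb in the genome, stood at 51.6 CPM against 4.36 CPM in the wild type and 51.8 CPM against 6.76 CPM in the Fbn1 C1039G/+ library. C4b (ENSMUSG00000073418, mm10 chromosome 17, 34728380 to 34743882), whose product binds C2 in the classical pathway, stood at 1648 CPM against 207 CPM in the wild type and 1418 CPM against 229.8 CPM in the Fbn1 C1039G/+ library; it has a near-identical copy, C4a, with which reads may be shared. The C1 proteases followed, C1s1 at 161 against 16.5 CPM and 74.7 against 12.1 CPM and C1ra at 131 against 28.9 CPM and 95.3 against 25.4 CPM. Serping1, which encodes the inhibitor of those 2 proteases, stood at 1421 CPM against 322 CPM in the wild type and 1196 CPM against 348 CPM in the Fbn1 C1039G/+ library. In the macrophage-low cells Cfb still stood at 89.1 and 35.1 CPM, C2 at 49.8 and 48.9 CPM, C4b at 1844 and 1481 CPM and C1s1 at 153 and 73.3 CPM. C1qa, a subunit of C1q made by macrophages, stood at 336 and 274 CPM in all C3 cells and 7.92 and 3.78 CPM in macrophage-low cells. C1qa is among the 12 genes that define macrophage-low cells, so its fall there is fixed by the choice.

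Secreted proteases, inhibitors and matrix proteins formed a further group. Mmp3 (ENSMUSG00000043613, mm10 chromosome 9, 7445822 to 7455975) stood at 1132 CPM against 95.4 CPM in the wild type and 1436 CPM against 149.7 CPM in the Fbn1 C1039G/+ library, or 11.9-fold (11.5 to 12.2) and 9.595-fold (9.32 to 9.87). Svep1 stood at 14.9-fold (13.2 to 16.8) and 10.5-fold (9.35 to 11.7) the level of C3 = 0 cells. Cpz, a carboxypeptidase that binds Wnt proteins, stood at 61.1 CPM against 6.08 CPM in the wild type and 31.6 CPM against 3.20 CPM in the Fbn1 C1039G/+ library. Adamts15, a protease that cuts versican, stood at 182 against 65.5 CPM and 175 against 50.4 CPM. Mmp3, Cpz and Adamts15 were the only ones of 26 measured matrix proteases and inhibitors to meet the rule. Itih4, of the inter-alpha-trypsin inhibitor family, was among the most enriched genes, at 52.7 CPM against 2.92 CPM in the wild type and 44.2 CPM against 2.43 CPM in the Fbn1 C1039G/+ library. Elastic fibre genes split: Eln, which encodes elastin, and Fbln7, which encodes fibulin-7, were higher, while Fbn1 was not past 2-fold. Eln stood at 504 CPM against 189.7 CPM in the wild type and 809 CPM against 206 CPM in the Fbn1 C1039G/+ library, Fbln7 at 35.6 against 3.47 CPM and 33.4 against 4.68 CPM and Fbn1 at 479 against 400.3 CPM and 559.6 against 436 CPM. Of 25 measured collagen genes 1 was higher, Col6a6, at 96.4 against 31.1 CPM and 79.7 against 27.99 CPM, and 3 were lower, Col8a2, Col11a1 and Col11a2. Over all measured genes 2.96% were higher and 1.01% lower, so 1 higher collagen gene of 25 was close to that share. Growth factor carriers were represented by Igfbp3, at 323 CPM against 98.9 CPM in the wild type and 299 CPM against 56.8 CPM in the Fbn1 C1039G/+ library, and Igfbp4, at 1910.1 against 831 CPM and 1938 against 877 CPM.

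Chemokine genes made up a further group. Of 16 measured chemokine, cytokine and adhesion genes 10 were higher, against 2.96% of all measured genes, with a median log2 ratio of 1.79 and 1.21. Cxcl5, which draws neutrophils, stood at 41.8 CPM against 1.45 CPM in the wild type and 23.1 CPM against 1.56 CPM in the Fbn1 C1039G/+ library and was as high in macrophage-low cells, at 45.6 and 25.8 CPM. Cxcl1, of the same class, stood at 125 against 37.1 CPM and 39.9 against 8.62 CPM and at 127 and 37.8 CPM in macrophage-low cells. Cxcl12, the ligand of Cxcr4, stood at 352 against 123 CPM and 233 against 107 CPM. Ccl8, by contrast, stood at 35.1 and 127 CPM in all C3 cells and at 2.16 and 0.889 CPM in macrophage-low ones, and Cxcl2 at 179.5 and 29.5 CPM in all and at 8.92 and 1.33 CPM in macrophage-low ones. Cxcl9, an interferon-gamma-induced chemokine that draws T cells, stood at 345 CPM against 3.50 CPM in the wild type and 28.6 CPM against 1.84 CPM in the Fbn1 C1039G/+ library; 157 and 29.8 CPM remained in macrophage-low cells, against 2.44 and 0.809 CPM in C3 = 0 cells filtered likewise. Among 26 measured genes of the NF-kB and acute-phase response 7 were higher. They included Osmr, the oncostatin M receptor, at 82.2 against 32.1 CPM and 87.8 against 37.6 CPM, and Il4ra, a receptor chain for interleukins 4 and 13, at 18.9 against 7.42 CPM and 21.5 against 7.34 CPM. Lcn2 and Saa3 were carried by few cells, and 5 cells held 99.5% of the Saa3 UMIs of wild type C3 cells. No gene of 23 measured immediate early genes met the rule.

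Interferon and antigen presentation genes were higher in part. Of 28 measured interferon-response genes 6 were higher by the rule, against 2.96% of all measured genes. They were Ifi44, Irf7, Gbp2, Psmb8, Psmb9 and H2-K1. H2-K1, an MHC class I heavy chain with close paralogs, stood at 1843 CPM against 391 CPM in the wild type and 1152 CPM against 439 CPM in the Fbn1 C1039G/+ library, and Psmb8, a subunit of the immunoproteasome, at 331 against 95.8 CPM and 258 against 116 CPM. In macrophage-low cells H2-K1 stood at 1639 and 1103 CPM. The dendritic cell and MHC class II genes H2-Ab1, H2-Aa and Cd74 moved with this group: all 3 measured were higher, and the 8 genes of that list summed to 3361 CPM against 585 CPM in the wild type and 1218 CPM against 495 CPM in the Fbn1 C1039G/+ library. In macrophage-low C3 cells Cd74 stood at 307 and 65.1 CPM, against 60.3 and 51.9 CPM in C3 = 0 cells filtered likewise. Further genes picked by the naming rule were Dpep1, a membrane dipeptidase, at 22.3 against 0.949 CPM and 18.1 against 1.07 CPM, Steap4, a metalloreductase, at 42.6 against 3.95 CPM and 31.8 against 3.57 CPM, and Ms4a4d, a membrane protein of the MS4A family, at 75.03 against 9.03 CPM and 74.3 against 9.49 CPM. AW112010 stood at 96.3 against 6.72 CPM and 38.3 against 4.73 CPM and at 38.3 and 19.1 CPM in macrophage-low cells.

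**Figure D3:**
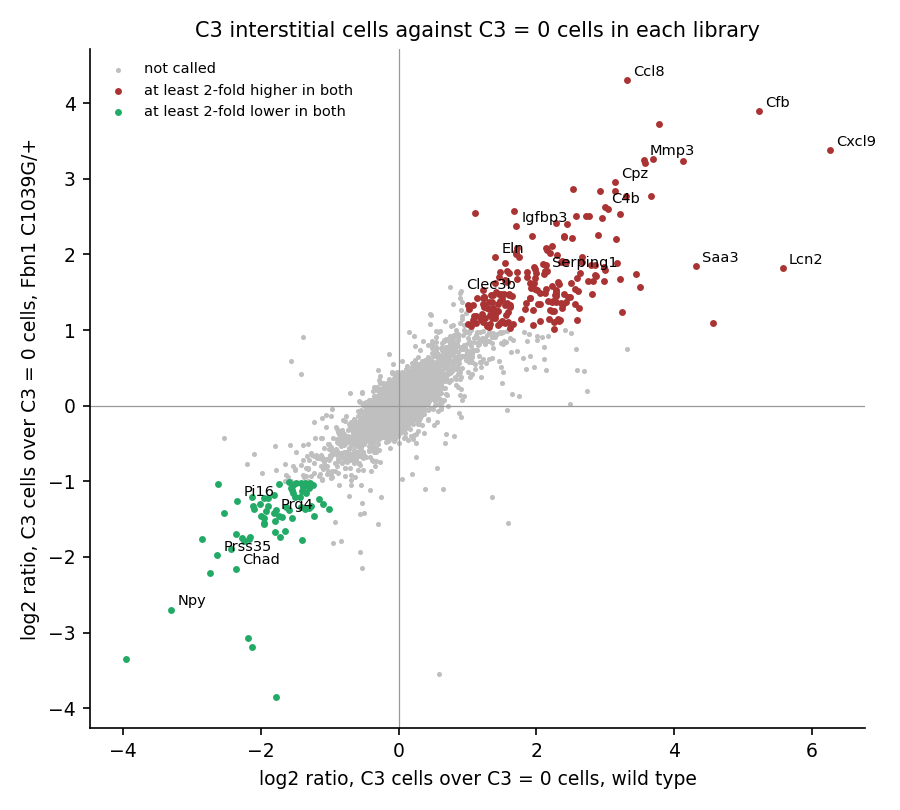
Log2 ratio of CPM in C3 cells over C3 = 0 cells in the wild type (horizontal axis) and the Fbn1 C1039G/+ library (vertical axis), 1 point per measured gene. The 208 genes higher and 71 genes lower in both libraries are coloured; Cfb, Mmp3 and C4b lie at the upper right, and Npy, Prss35 and Chad at the lower left.

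Genes that were lower in C3 cells included genes listed as markers of other interstitial states. Npy, which encodes neuropeptide Y, stood at 17.98 CPM against 186 CPM in the wild type and 32.6 CPM against 217 CPM in the Fbn1 C1039G/+ library. Tesc, which encodes tescalcin, stood at 11.3 CPM against 80.4 CPM in the wild type and 14.9 CPM against 72.4 CPM in the Fbn1 C1039G/+ library. Prss35, a serine protease-like gene, stood at 27.7 CPM against 177 CPM in the wild type and 61.6 CPM against 246 CPM in the Fbn1 C1039G/+ library. Chad, which encodes chondroadherin, a cartilage matrix protein, stood at 29.8 against 157 CPM and 18.6 against 86.4 CPM, and Col11a2, a cartilage collagen chain, at 12.6 against 97.2 CPM and 25.4 against 88.6 CPM. The other genes at this end were Opcml, Wnt16, Coch, Tmem100 and Kcnmb4, each between 0.137 and 0.288 of the C3 = 0 level. Of 22 measured proteoglycan and hyaluronan genes 5 were lower and none higher, among them Prg4, at 732 against 2569.9 CPM and 651 against 1737 CPM, and Has2, a hyaluronan synthase, at 10.9 against 33.5 CPM and 12.1 against 28.1 CPM. Of 14 measured Wnt ligands and modulators 4 were lower, Wnt9a, Wnt11, Rspo3 and Apcdd1, and 1 was higher, the antagonist Sfrp1, at 428 against 149 CPM and 356 against 166 CPM. The shares over all measured genes were 1.01% lower and 2.96% higher.

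Among 23 measured mesenchymal transcription factor genes 3 were higher and 1 lower, where over all measured genes 2.96% were higher and 1.01% lower. Tcf21, a factor of cardiac and other fibroblasts, stood at 155 against 64.8 CPM and 179 against 65.5 CPM, Osr1 at 25.9 against 11.7 CPM and 26.8 against 10.1 CPM and Twist2 at 52.96 against 25.8 CPM and 44.2 against 20.3 CPM. Scx, the tendon factor scleraxis, was lower, at 83.9 against 223 CPM and 138 against 302 CPM. Of 27 measured TGF-beta pathway genes 1 was higher, close to the 2.96% over all genes, and 1 was lower. The higher one was Acvrl1, a type I receptor, at 54.3 against 19.2 CPM and 59.4 against 20.6 CPM. The lower one was Thbs1, which encodes thrombospondin-1, at 551 against 1482 CPM and 858 against 1979.7 CPM. No contractile gene of 13 met the rule. Rbp4, the retinol carrier, was the 1 of 7 measured retinoid genes that did, at 81.8 against 16.005 CPM and 59.1 against 10.3 CPM.

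Within C3 cells, the Fbn1 C1039G/+ library was set against the wild type library with a rule of 1.5-fold and an interval excluding 1. Of 6789 measured genes, 113, or 1.66%, had the higher level in Fbn1 C1039G/+ cells and 176, or 2.59%, the lower one, 4.26% in all. In the C3 = 0 cells 1.05% and 1.16% of 6548 genes were higher and lower. Of the 176 lower genes 97 were measured in the C3 = 0 cells, and genes not measured there could not be called there. Of those 97 genes 40 were also lower in the C3 = 0 cells, which is 22.7% of the 176 and 52.6% of the 76 lower there. Of the 113 higher genes 98 were measured in the C3 = 0 cells. Of those 98 genes 28 were also higher there, 24.8% of the 113 and 40.6% of the 69. Without the cells holding macrophage transcripts the counts in C3 cells were 120 higher and 123 lower. The median log2 ratio over all genes was 0.04 in C3 cells and 0.03 in C3 = 0 cells.

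Fbn1 itself stood at 479 CPM in wild type and 559.6 CPM in Fbn1 C1039G/+ C3 cells, a ratio of 1.17 (1.12 to 1.22), and 3′ counts do not separate its alleles. Transcripts of the TGF-beta ligands, which bind to fibrillin microfibrils in latent form, did not reach 1.5-fold. The ratio was 1.01 (0.868 to 1.17) for Tgfb1, 0.996 (0.890 to 1.11) for Tgfb2 and 1.16 (1.04 to 1.29) for Tgfb3. Of 26 measured genes of the TGF-beta list 4 were higher and none lower. They were Ccn2, which encodes connective tissue growth factor, at 363 and 698 CPM, the inhibitory Smad6 at 27.1 and 53.6 CPM, Thbs1 at 551 and 858 CPM, and Tnc, which encodes tenascin-C, at 17.8 and 33.9 CPM. In male-called cells Tnc stood at 24.1 and 20.2 CPM, lower in the Fbn1 C1039G/+ library.

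Of the 12 genes with the lowest ratios 8 encode chemokines, interleukin-1 beta or acute-phase proteins, among them Cxcl9, Lcn2, Cxcl10 and Saa3. In the list of chemokines, cytokines and adhesion molecules 10 of 16 measured genes were lower and 1, Ccl8, was higher, with a median log2 ratio of -0.68. Ccl8 stood at 2.16 and 0.889 CPM in macrophage-low cells, where the wild type was the higher one. Ccl2 and Ccl7, among the 10, were higher in the Fbn1 C1039G/+ library in female-called cells, at log2 ratios of 0.61 and 0.29, and in cells with 3 to 5 C3 UMIs, at 1.76 and 2.19. Markers of other cell types moved the same way: 5 of 11 macrophage genes were lower, and H2-Ab1, H2-Aa and Cd74, 3 of 3 measured dendritic cell genes, were lower with a median log2 ratio of -1.46. Their part in these differences was not tested. Cxcl1 stood at 125 CPM in wild type and 39.9 CPM in Fbn1 C1039G/+ C3 cells, a ratio of 0.320 (0.277 to 0.370), and at 37.1 and 8.62 CPM in the C3 = 0 cells. Cxcl12 stood at 352 CPM in wild type and 233 CPM in Fbn1 C1039G/+ C3 cells, a ratio of 0.661 (0.619 to 0.705), while its ratio in C3 = 0 cells was 0.864. Cxcl9 stood at 345 CPM in wild type and 28.6 CPM in Fbn1 C1039G/+ C3 cells, a ratio of 0.0829 (0.0703 to 0.0971), and at 157 and 29.8 CPM in macrophage-low cells; cells with macrophage transcripts held 65.1% of its UMIs in wild type and 16.8% in Fbn1 C1039G/+ C3 cells. Cxcl10, also induced by interferons, stood at 225 CPM in wild type and 27.5 CPM in Fbn1 C1039G/+ C3 cells, a ratio of 0.122 (0.103 to 0.144). Several of these genes were carried by few cells or by those with macrophage transcripts. In wild type C3 cells 5 cells held 67.6% of Cxcl10, 60.5% of Ccl2, 54.05% of Cxcl9 and 52.1% of Ccl7 UMIs. Il1b went from 90.03 and 14.7 CPM to 0.288 and 0.222 CPM in macrophage-low cells, Ccl4 to 1.01 and 0.889 CPM, Dusp2 to 0.432 and 0.222 CPM and Cxcl2 to 8.92 and 1.33 CPM. Of Saa3 UMIs 5 wild type cells held 99.5%, and of those of H19, an imprinted noncoding RNA, 97.9%.

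The Cxcl9 difference was concentrated in a small set of wild type cells. At least 3 Cxcl9 UMIs occurred in 45 wild type C3 cells, or 6.83%, and in 7 Fbn1 C1039G/+ cells, or 1.72%, and those 45 cells held 99.3% of the Cxcl9 UMIs. Their median C3 count was 25 against 7 in C3 cells without Cxcl9, at a median depth of 20576 against 11653 UMIs. Of the 45 cells 22 had under 3 macrophage UMIs, at a median depth of 15410 UMIs and a median C3 count of 23.5. By sex-linked transcripts 36 of the 45 were called male and 1 female. In wild type C3 cells called female Cxcl9 stood at 3.84 CPM and in those called male at 652 CPM. In the Fbn1 C1039G/+ library the values were 55.1 and 20.2 CPM, so among female-called cells the ratio between libraries ran the other way. That reversal rests on few cells. At least 3 Cxcl9 UMIs occurred in 1 wild type and 4 Fbn1 C1039G/+ female-called C3 cells, and the wild type value was 13 UMIs in 3 cells. Cxcl10 was higher in male-called cells of both libraries, at 20.4 and 405 CPM in female-called and male-called cells of the wild type. In the Fbn1 C1039G/+ ones it stood at 3.67 and 40.5 CPM. Unlike Cxcl9, it was higher in male-called cells there and lower than in the wild type in both sexes. H2-K1 stood at 897 and 2572 CPM and at 1069 and 1289.97 CPM. Of 28 interferon-response genes Irf1, Rsad2, Psmb9 and H2-K1 were lower, and Isg15, Ifi44 and Irf7 were higher. Among female-called cells Rsad2, Psmb9 and H2-K1 were higher in the Fbn1 C1039G/+ library, at log2 ratios of 0.91, 0.15 and 0.25. Sex, single mice and library cannot be told apart in these pools.

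Complement and acute-phase genes were lower in part. Cfb and C1s1 were lower among 10 measured complement genes, and the median log2 ratio of the 10 was -0.11. Cfb stood at 116 CPM in wild type and 40.8 CPM in Fbn1 C1039G/+ C3 cells, a ratio of 0.353 (0.305 to 0.408), and its ratio in C3 = 0 cells was 0.857. In female-called cells Cfb stood at 63.3 and 27.1 CPM and in male-called cells at 155 and 62.8 CPM, lower in the Fbn1 C1039G/+ library in each. C1s1 stood at 161 CPM in wild type and 74.7 CPM in Fbn1 C1039G/+ C3 cells, a ratio of 0.464 (0.416 to 0.518), with 119 and 66.1 CPM in female-called and 195 and 93.4 CPM in male-called cells. C4b, at a ratio of 0.860, C2, at 1.00, and Serping1, at 0.842, were inside 1.5-fold. In the list of NF-kB and acute-phase genes 8 of 26 were lower and Serpina3n was higher. Among the lower ones were Nfkbia, Tnfaip3 and Socs3, which restrain cytokine signals. Nfkbiz was also lower. Lcn2, which encodes the iron-siderophore binder lipocalin-2, stood at 53.7 CPM in wild type and 5.32 CPM in Fbn1 C1039G/+ C3 cells, a ratio of 0.0991 (0.0661 to 0.143); it was at 6.21 and 7.81 CPM in female-called cells. Cfb, at 11 or more C3 UMIs, stood at 231 and 85.9 CPM, and at 3 to 5 it stood at 29.9 and 27.5 CPM. Much of the difference thus lay among the cells richest in C3. The group with 11 or more was not level in C3, which stood at 1689 and 1063 CPM there. The part of this in the Cfb difference was not tested.

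**Figure D4:**
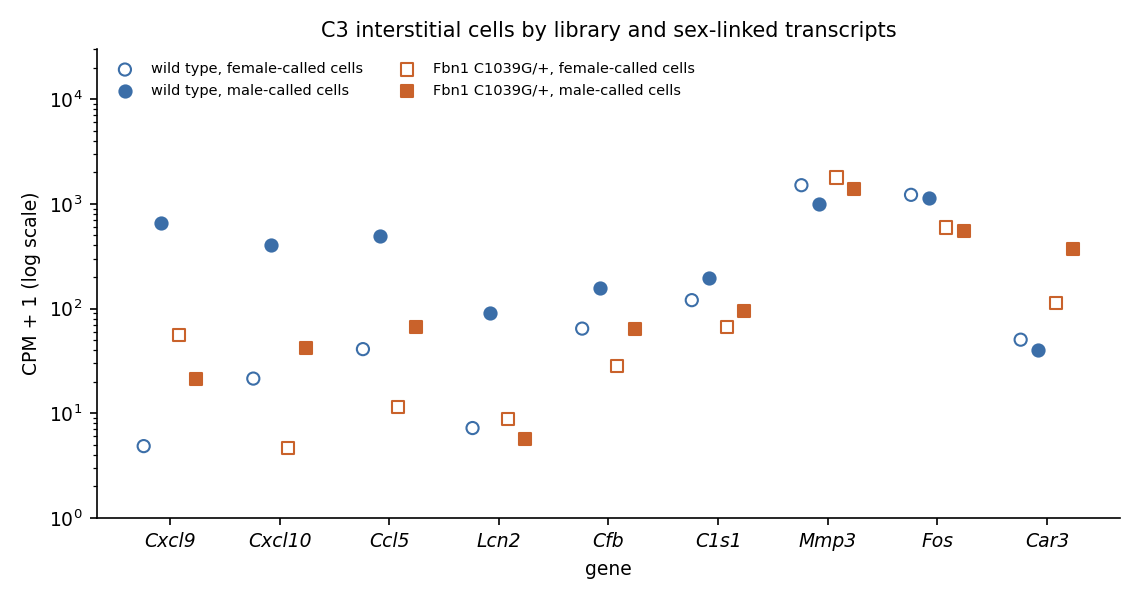
CPM plus 1 (vertical axis, log scale) of 9 genes in C3 cells of each library (blue circles wild type, orange squares Fbn1 C1039G/+) called female (open) or male (filled) by sex-linked transcripts; 1 point is 1 sum over cells. For Cxcl9, Cxcl10, Ccl5 and Lcn2 the filled blue points stand above the other 3, whereas Cfb, C1s1 and Fos are lower in the Fbn1 C1039G/+ library in both sexes.

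Immediate early genes, switched on within minutes of a stimulus that includes tissue dissociation, were lower in both kinds of cell. In C3 cells 13 of 22 measured genes were lower, and in C3 = 0 cells 13 of 23. Fos stood at 1175 CPM in wild type and 577 CPM in Fbn1 C1039G/+ C3 cells, a ratio of 0.491 (0.472 to 0.511), and at 1417 and 506 CPM in the C3 = 0 cells. Gadd45b, a stress-induced gene, stood at 149 CPM in wild type and 28.9 CPM in Fbn1 C1039G/+ C3 cells, a ratio of 0.194 (0.164 to 0.228), and its ratio in C3 = 0 cells was 0.197. The part of dissociation in these differences was not tested.

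Among genes higher in the Fbn1 C1039G/+ C3 cells, Dio2, which activates thyroid hormone, stood at 3.86 CPM in wild type and 25.2 CPM in Fbn1 C1039G/+ C3 cells, a ratio of 6.52 (4.48 to 9.74), and at 11.7 and 13.01 CPM in the C3 = 0 cells. Car3, a carbonic anhydrase, stood at 46.8 CPM in wild type and 228 CPM in Fbn1 C1039G/+ C3 cells, a ratio of 4.87 (4.36 to 5.45), and at 127 and 170.2 CPM in the C3 = 0 cells. Pvalb, which encodes the calcium binder parvalbumin, stood at 7.06 CPM in wild type and 33.004 CPM in Fbn1 C1039G/+ C3 cells, a ratio of 4.67 (3.50 to 6.31). Bdnf, a neurotrophin, stood at 7.61 CPM in wild type and 29.3 CPM in Fbn1 C1039G/+ C3 cells, a ratio of 3.85 (2.89 to 5.17). Fn1, which encodes fibronectin, stood at 90.4 CPM in wild type and 242 CPM in Fbn1 C1039G/+ C3 cells, a ratio of 2.68 (2.45 to 2.92), and its ratio in C3 = 0 cells, 2.55, was close to it. Ifi44, Irf7 and Isg15 were higher in both kinds of cell, with Ifi44 at ratios of 2.90 and 5.98. Matn4, a matrilin of the extracellular matrix, stood at 28.2 CPM in wild type and 72.6 CPM in Fbn1 C1039G/+ C3 cells, a ratio of 2.57 (2.19 to 3.02). Hspa1b, a heat shock gene with a near-identical copy, stood at a ratio of 2.54 in C3 cells and 2.68 in C3 = 0 cells. The melanocyte genes Tyrp1 and Mlana were also higher, but 5 cells held 98.3% of the Tyrp1 and 95% of the Mlana UMIs of the Fbn1 C1039G/+ C3 cells. Ptgds rested on few cells too, 5 of which held 83.1% of its UMIs there. For Car3 and Pvalb 5 cells held 43.5% and 41.9% of the UMIs of the Fbn1 C1039G/+ C3 cells. At least 1 Car3 UMI occurred in 15.6% of wild type and 28.7% of Fbn1 C1039G/+ C3 cells. For Pvalb these shares were 4.10% and 14.0%.

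Matrix genes differed in both directions. Eln stood at 504 CPM in wild type and 809 CPM in Fbn1 C1039G/+ C3 cells, a ratio of 1.61 (1.54 to 1.67), while its ratio in C3 = 0 cells was 1.09. In female-called cells Eln was alike, at 578 and 579.5 CPM, and in male-called cells it stood at 418 and 1099.98 CPM. Over all measured genes in this comparison 1.66% were higher and 2.59% lower. Of 24 measured collagen genes 5 were higher, Col8a1, Col11a1, Col11a2, Col12a1 and Col18a1, and none lower. Of 18 measured proteoglycan and hyaluronan genes Fmod, Aspn and Vcan were higher and Chad was lower. In the fibrillin and elastic fibre list Eln and Fbln2 were higher and Efemp1 was lower, of 22 measured. Of 25 measured matrix proteases and inhibitors Mmp2 and Serpine2 were higher and Adamts1 and Cpz were lower. The call for Cpz reversed in male-called cells. The call for Chad reversed without predicted doublets, and that for Col11a1 reversed with at least 5 C3 UMIs. The Wnt antagonists Sfrp2 and Frzb were higher, with Sfrp2 at 446 CPM in wild type and 922 CPM in Fbn1 C1039G/+ C3 cells, a ratio of 2.07 (1.98 to 2.15). Sfrp2 was higher in female-called cells, at 402 and 798 CPM, and in male-called cells, at 467 and 1238 CPM.

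**Figure D5:**
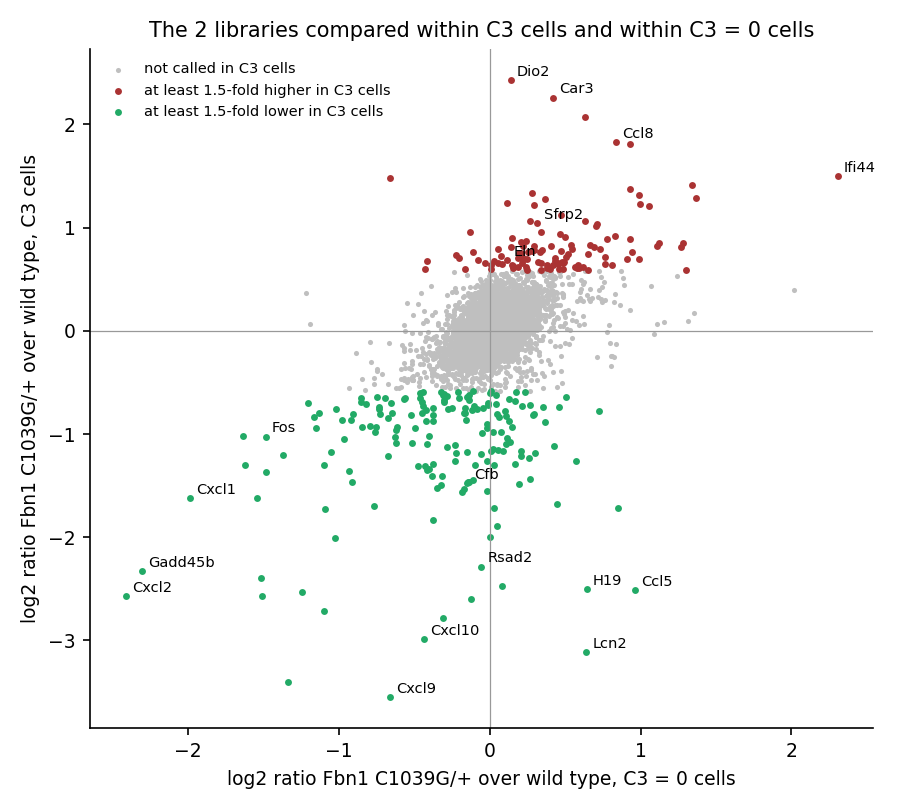
Log2 ratio of Fbn1 C1039G/+ over wild type CPM in C3 = 0 cells (horizontal axis) and in C3 cells (vertical axis), 1 point per gene measured in C3 cells. Coloured points are the 113 genes higher and the 176 genes lower in C3 cells; Cxcl2, Gadd45b and Cxcl1 are low on both axes, and Cxcl9, Cxcl10, Rsad2 and Cfb are low mainly in C3 cells.

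Since C3 both chose the cells and differed between libraries, the state was also marked by genes that the rule did not use. Interstitial cells with at least 3 Mmp3 UMIs numbered 881 in the wild type and 1011 in the Fbn1 C1039G/+ library, 11.7% (10.9 to 12.4) and 13.0% (12.3 to 13.8) of interstitial cells. Of these, 39.95% (36.7 to 43.3) and 22.6% (20.01 to 25.3) were C3 cells. C3 stood at 526 and 160.3 CPM in them. Cells with at least 3 Svep1 UMIs were 2.09% and 2.27% of interstitial cells, with overlapping intervals, and 63.3% (55.3 to 70.8) and 42.05% (34.7 to 49.7) of them were C3 cells. Cells marked by Mmp3 or by Svep1 were thus not fewer in the Fbn1 C1039G/+ library, and a smaller share of them reached 3 C3 UMIs. Mmp3 itself was at a ratio of 1.27 in C3 cells and 1.57 in C3 = 0 cells between the libraries, and Svep1 at 1.07 and 1.53, so these marks were not level either. Other marks gave other pictures. Cells with at least 3 C4b UMIs were 28.7% and 28.6% of interstitial cells. Those with at least 3 Cxcl9 UMIs were 0.807% and 0.219%, or 61 and 17 cells. The remaining markers of the state were seen in a smaller share of C3 = 0 cells in the Fbn1 C1039G/+ library. Among C3 cells the share was lower for Cpz and close for Igfbp3 and Clec3b. At least 1 Cpz UMI occurred in 35.1% and 21.8% of C3 cells and in 3.74% and 2.10% of C3 = 0 cells. For Igfbp3 the shares were 51.3% and 48.5% of C3 cells and 15.3% and 12.4% of C3 = 0 cells. For Clec3b they were 22.6% and 22.1% of C3 cells and 10.1% and 7.82% of C3 = 0 cells.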

How the data were processed

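Each library was a raw matrix of UMI counts per gene and barcode, deposited by the authors and not normalised. Per the submitters' processing notes it was made with Cell Ranger 3.1.0 on mm10, while the file headers name 5.0.1. Barcodes without cells were not analysed here, so free RNA was not measured.

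The cell rule was applied to the counts as deposited. UMIs were summed per class and library and expressed as CPM, and log2 ratios used a pseudocount of 1 CPM. A gene was measured with at least 20 CPM in 1 of the sums compared and at least 50 UMIs. Shares have exact Clopper-Pearson intervals, ratios exact conditional binomial intervals and differences of shares Newcombe intervals. No p-value was computed, because each genotype had 1 library. Cells with at least 3 UMIs of 12 macrophage genes were the macrophage-transcript cells. Sexes were called from Xist, Ddx3y, Uty, Kdm5d and Eif2s3y. Scrublet in scanpy 1.11.5 called 0 doublets by its automatic threshold, so an alternative removed the highest scores at 0.8% per 1000 barcodes, 695 and 777 barcodes.

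Named genes were the 15 most and 10 least enriched in C3 cells, the 12 highest and 12 lowest between libraries, the marker genes, Fbn1, the TGF-beta ligands and up to 5 genes of each list. Other genes with values, such as Dcn and C1qa, were chosen after their values were seen. The C3 cells and all gene lists were chosen with earlier results of these data known. Alternatives covered thresholds, filters, scaling, depth, sex and removal of other cells. Gene positions are from GENCODE M21 (mm10), matched for 32235 of 32285 genes, and promoters are from RefSeq.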

Additional observations from a re-analysis of the deposited data

Results flagged for a closer look

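5 of the named genes lay on opposite sides in the 2 libraries when C3 cells were set against C3 = 0 cells, each by at least 1.5-fold and with an interval excluding 1. The difference between the libraries was not tested, since each is a single library. Dio2 had a log2 ratio of -1.39 in the wild type and 0.90 in the Fbn1 C1039G/+ library. Ptgds had -1.56 and 0.59. H19 had 1.58 and -1.56. The proliferation genes Top2a, at 0.64 and -1.10, and Hist1h1b, a histone gene, at 1.35 and -1.20, went the other way from Dio2. In wild type C3 cells 5 cells held 97.9% of the H19, 64% of the Top2a and 66.3% of the Hist1h1b UMIs, against 45.7% of the Dio2 and 50% of the Ptgds UMIs. In the Fbn1 C1039G/+ C3 cells, 5 cells or fewer held 100% of the H19 and of the Hist1h1b UMIs. There 5 cells held 81.1% of the Top2a, 83.1% of the Ptgds and 29.6% of the Dio2 UMIs.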

How the results depend on the processing

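No paired analysis was possible because each genotype had 1 library, and no replicate could be left out. The share of C3 cells was lower in the Fbn1 C1039G/+ library under all 11 alternatives, with ratios from 0.506 with at least 5 C3 UMIs to 0.707 with cells thinned to 3000 UMIs. With no level filter the counts were 443 higher and 123 lower for C3 against C3 = 0 cells and 321 higher and 732 lower between libraries, and at 100 CPM they were 69, 27, 35 and 52. In female-called cells alone 108 genes were lower for C3 against C3 = 0 cells and 335 higher between libraries, and in male-called cells alone 251 were higher and 312 lower between libraries. In cells with 3 to 5 C3 UMIs alone, an alternative added after seeing the data like the joint removal of doublets and other cells, the counts were 138 higher and 45 lower against C3 = 0 cells and 194 higher between libraries. Some named genes changed sign; beyond the smaller number of cells, the cause was not tested. Without macrophage-transcript cells, the reversed log2 ratios were Il1b -0.68 for C3 against C3 = 0 cells of the wild type, and Il1b -0.19 for C3 against C3 = 0 cells of the Fbn1 C1039G/+ library, and Saa3 0.90 and Ccl8 -0.74 between the libraries. Without predicted doublets, the reversed log2 ratios were Mlana -0.12 for C3 against C3 = 0 cells of the wild type, and Il1b -0.61 for C3 against C3 = 0 cells of the Fbn1 C1039G/+ library, and Saa3 0.88 and Chad 0.76 between the libraries. Without doublets, macrophage-transcript and melanocyte-transcript cells together, the reversed log2 ratios were Il1b -0.63 and Mlana -0.20 for C3 against C3 = 0 cells of the wild type, and Il1b -0.17 for C3 against C3 = 0 cells of the Fbn1 C1039G/+ library, and Saa3 0.90, Ccl2 0.22, Ccl8 -0.99 and Chad 0.68 between the libraries. In female-called cells alone, the reversed log2 ratios were Il1b -0.21 and Ccl5 -0.61 for C3 against C3 = 0 cells of the Fbn1 C1039G/+ library, and Ptgds -0.56, Lcn2 0.29, Cxcl9 3.53, Saa3 0.57, Ccl2 0.61, Ccl7 0.29, Ccl8 -1.32, Rsad2 0.91, H2-K1 0.25 and Psmb9 0.15 between the libraries. In male-called cells alone, the reversed log2 ratios were Il1b -1.45, Cxcl2 -1.25 and Mlana -0.22 for C3 against C3 = 0 cells of the Fbn1 C1039G/+ library, and Ptgds -0.28, Tnc -0.24, Tyrp1 -2.38, Cpz 0.16 and Mlana -1.001 between the libraries. In cells with 3 to 5 C3 UMIs alone, the reversed log2 ratios were Saa3 -0.29 for C3 against C3 = 0 cells of the wild type, and Saa3 -0.16 for C3 against C3 = 0 cells of the Fbn1 C1039G/+ library, and Lcn2 1.62, Ccl2 1.76, Ccl7 2.19, Ccl5 0.14 and Chad 0.12 between the libraries. With at least 5 C3 UMIs, the reversed log2 ratios were Mlana -0.36 for C3 against C3 = 0 cells of the wild type, and Col11a1 -0.11 between the libraries. With the interstitial rule at 2%, the reversed log2 ratios were Ptgds -0.0291 between the libraries. Depth limits genes near 20 CPM, which at the 5635713 UMIs of the Fbn1 C1039G/+ C3 cells rest on few counts from few cells.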
